A study of Mus musculus with 6 samples.

Results

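The 9 genes described here encode inhibitory checkpoint receptors and their kin on CD8+ T cells, namely Pdcd1 (PD-1), Lag3, Tigit, Havcr2 (TIM-3), Btla, Cd160, Cd244a (2B4), Cd200 and Cd96. They were chosen by name, not by a measured value, although earlier results of these data were known. All 9 were found among the 78275 genes of the deposited table. CD4-CD8+ TCRβhigh T cells were sorted from 3 WT and 3 BIT mice, 1 RNA library was made from each mouse, and the comparison asked how the 2 transcriptomes differ. BIT mice are C57BL/6 mice homozygous for a *Psmb8* allele in which the sequence of the immunoproteasome subunit β5i is replaced by that of *Psmb11*, which encodes the thymoproteasome subunit β5t. The allele is in the germ line, so the change is not restricted to T cells. WT mice carried no such allele. The labels give all mice as males of 9 to 10 weeks, and the sorted cells as more than 98% pure. Several BIT lines were engineered, and the study worked with 1 of them, BIT #1–2, except where it names another, which it does not for these libraries. The labels name lymph nodes as the source, whereas their protocol names lymph nodes and spleens.

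Inhibitory receptors damp signals that a T cell receives through its antigen receptor and its costimulatory receptors. Resting T cells carry BTLA, CD96 and, on part of the cells, CD160, whereas PD-1, LAG-3, TIM-3 and TIGIT are best known for appearing after activation and for their joint presence on exhausted cells. Several of them compete with an activating receptor for a shared ligand. TIGIT and CD96 share the ligand CD155 with the activating receptor CD226, and BTLA and CD160 both bind HVEM.

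Many of these receptors signal through short tyrosine motifs in the cytoplasmic tail. The ITIM recruits phosphatases, and the ITSM, a related switch motif, recruits phosphatases or adaptors of the SAP family. Both were searched in the canonical protein after the last membrane-spanning stretch. An ITIM was taken as isoleucine, leucine, valine or serine at the first place, tyrosine at the third and isoleucine, leucine or valine at the sixth, and an ITSM as threonine, tyrosine and valine or isoleucine at the same places. The coding sequences below, read from GRCm39 with Gencode M39 and written 5′ to 3′ in the sense of the gene, are shown because they tell apart the receptors that carry a motif from those that do not. Capitals mark the 18 bases of the motif.
Pdcd1 ITIM (chr1:93967213-93967230, minus strand, exon 5): cctagtGTGGCCTATGAGGAGCTGgacttc
Pdcd1 ITSM (chr1:93967144-93967161, minus strand, exon 5): gtgcacACAGAATATGCCACCATTgtcttc
Btla ITIM (chr16:45070853-45070870, plus strand, exon 6): cagggcATTGTTTATGCTTCTTTGaaccat
Btla ITSM (chr16:45070928-45070945, plus strand, exon 6): gcacccACAGAATATGCATCCATTtgtgtg
Tigit ITIM (chr16:43469397-43469414, minus strand, exon 4): aatgtcCTGAGCTACAGAAGCCTAgagagc
Cd96 ITIM (chr16:45856287-45856304, minus strand, exon 15): cctcccATCAAGTACACGTATATTcaagaa
Cd244a ITSM (chr1:171405406-171405423, plus strand, exon 5): cctttgACAATATATGAATATGTCaaggac
The ITSM sequences of Pdcd1 and Btla were identical at 16 of 18 bases, whereas their ITIM sequences shared 8 of 18. Cd244a had 4 ITSM matches, of which the first is printed. No match was found in the tails of Lag3, Havcr2 and Cd200, and Cd160, which is held by a lipid anchor, had no membrane-spanning stretch by this search. A match is a description of these letters and not a measurement of signalling.

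The libraries held between 37467678 and 52922675 estimated counts, so that a gene without counts may still be at up to 3 counts, or 0.0567 CPM, the usual unit of a count relative to its library total, in the deepest library. In the shallowest library the same 3 counts are 0.0801 CPM, and both limits cover only the error of counting. The edited gene fitted the labels, since *Psmb8* had 59 to 73 counts in BIT mice and 8024 to 10790 in WT mice, and *Psmb11* 1226 to 1926 counts in BIT mice and 0 in each WT mouse. *Cd8a* had 28883 to 44572 counts and *Cd4* 8 to 38. The library labelled WT replicate 3 went against its label of a male mouse, with *Xist* at 66626 counts and 4 Y-linked genes at 0, whereas the other libraries had 2 to 125 counts of *Xist* and 8474 to 12329 Y-linked counts. Principal component 1, which held 34.4% of the variance, set replicate 3 of both genotypes (54.6 for WT and 28.6 for BIT) apart from the other 4 libraries (-36.5 to -3.31). Each result below is therefore also given without WT replicate 3 where that library decides it. In bulk RNA, fewer cells that express a gene and less RNA per cell cannot be told apart.

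The 9 receptors were expressed at very unequal levels. Per kilobase of annotated exon, Cd96 was at 69.2 ± 11.4 CPM (SD, n = 6 libraries), Btla at 11.5 ± 0.773, and Cd160 at 6.21 ± 0.714. These 3 receptors of resting cells thus stood above the rest, and Cd96 alone made up 75.3% of the sum over the 9 genes. Tigit followed at 1.88 ± 0.776 CPM per kilobase, Lag3 at 1.1 ± 0.493, and Pdcd1 at 0.93 ± 0.447. Cd200 was at 0.62 ± 0.168, Havcr2 at 0.292 ± 0.245, and Cd244a at 0.0919 ± 0.0422 CPM per kilobase, the last from no more than 35 counts in any library. From Cd96 to Cd244a the mean level per kilobase spanned 815-fold.

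Neighbours in this order were compared within each library. Cd96 lay above Btla (5.93-fold), Btla above Cd160 (1.87-fold), Cd160 above Tigit (3.54-fold) and Havcr2 above Cd244a (2.77-fold) in 6 of 6 libraries. The pairs were set by the mean levels of these same libraries, so that the order is a description and carries no test. The other 4 pairs were not in the same order in every library. Tigit exceeded Lag3 in 5 of 6 libraries, Lag3 exceeded Pdcd1 in 5, Pdcd1 exceeded Cd200 in 4, and Cd200 exceeded Havcr2 in 5. With the length of the canonical transcript in place of all annotated exons, Cd200 came before Pdcd1.

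**Figure D1:**
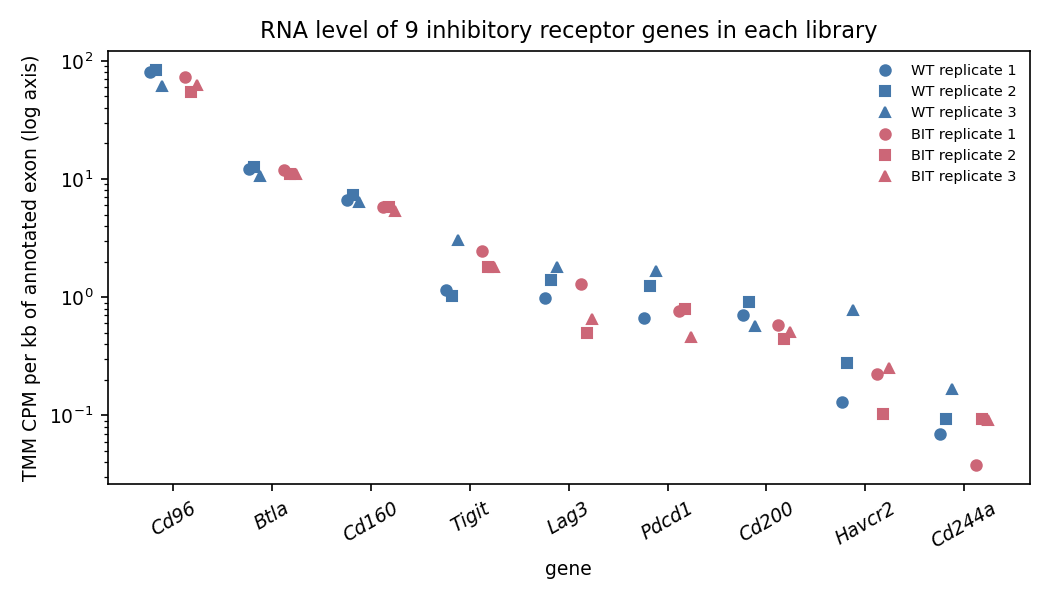
Level of each of the 9 receptor genes in each library, as TMM CPM per kilobase of annotated exon on a log axis, with 1 point per mouse (blue, WT; red, BIT; the symbol gives the replicate number). Cd96, Btla and Cd160 lie above the other genes in all 6 libraries, and the points of WT replicate 3 (blue triangles) are the highest of their gene for Tigit, Lag3, Pdcd1, Havcr2 and Cd244a.

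Between the genotypes, 8 of the 9 receptors had a fitted level lower in BIT than in WT mice and 1, Tigit, a higher one, beside 47.7% of all genes tested that were lower. The median log2 fold change was -0.31, against 0.01 over all 16105 genes tested. No receptor reached an adjusted p below 0.05 in limma-voom, a linear model fitted over all genes tested, a rule that 0.137% of all genes passed, and their adjusted p-values were between 0.56 and 0.862. At an unadjusted p below 0.05, 2 receptors, Cd160 and Cd96, were lower, beside 4.31% of all genes, and 0 were higher, beside 4.25%. EdgeR's quasi-likelihood test counted 1 such receptor, Cd160, and DESeq2 1, Pdcd1, and neither gave an adjusted p below 0.05 to any of the 9, DESeq2 leaving Cd244a without one. Only Cd160 had BIT libraries that all lay below the WT libraries, beside 5.96% of all genes, and none lay all above, beside 7.38%. Without WT replicate 3, Cd160, Cd96 and Cd200 were lower at an unadjusted p below 0.05 (6.43% of all genes) and Tigit was higher (5.27%). All 9 genes had passed the filter on low counts. The nominal 95% interval lay within 2-fold in both directions for 3 of them, Btla, Cd160 and Cd96, and for the other 6 it reached past 2-fold in at least 1 direction, so that these libraries do not bound the difference to less than 2-fold.

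**Figure D2:**
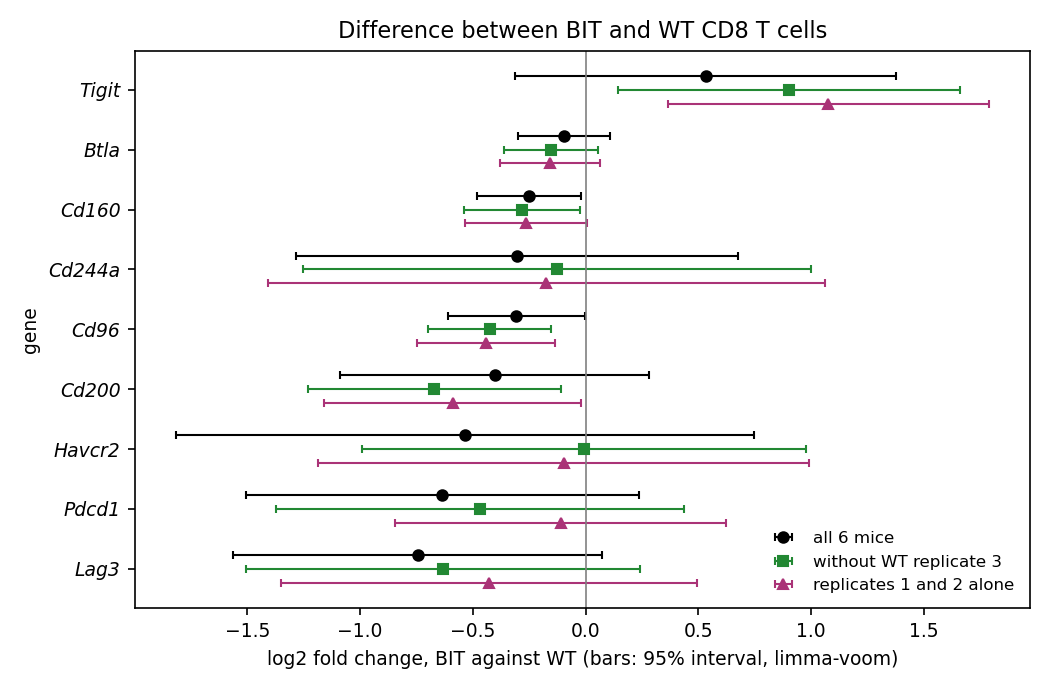
Fitted log2 fold change of BIT against WT for each receptor gene (points) with its nominal 95% interval (bars), from limma-voom on all 6 mice (black), without WT replicate 3 (green) and on replicates 1 and 2 of both genotypes (purple). Tigit lies right of 0 in all 3 fits and moves from 0.53 to 0.90 without WT replicate 3, whereas Havcr2 moves from -0.54 to -0.01.

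CD96 and TIGIT bind CD155, the product of *Pvr*, which also binds the activating receptor CD226. Cd96 (ENSMUSG00000022657.10, chr16:45856020-45940614, minus strand) was counted 9186, 8634 and 5779 times in the WT and 6753, 4927 and 5490 times in the BIT libraries. Scaled by TMM, which sets libraries to a common level over most genes, these were 176, 181 and 135 CPM in WT and 159, 118 and 137 CPM in BIT mice. The 2 groups overlapped because WT replicate 3 lay among the BIT libraries. The fitted log2 fold change was -0.31 (SE 0.134, unadjusted p = 0.0474, adjusted p = 0.576, limma-voom), or 80.8% of the WT level. Without WT replicate 3 it was -0.43 (SE 0.121, unadjusted p = 0.00658, adjusted p = 0.285). It was -0.20 (unadjusted p = 0.183, limma-voom) without BIT replicate 2 and -0.21 (unadjusted p = 0.164) without WT replicate 2, and the unadjusted p was also above 0.05 without WT replicate 1 (0.119) or BIT replicate 3 (0.0627).

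Tigit (ENSMUSG00000071552.6, chr16:43469100-43484509, minus strand) had 63, 51 and 137 counts in WT and 109, 78 and 76 in BIT mice. The TMM levels were 1.21, 1.07 and 3.21 CPM against 2.57, 1.87 and 1.9 CPM. In TMM CPM, WT replicates 1 and 2 were thus the lowest 2 of the 6 libraries and WT replicate 3 was the highest. On the quantile-normalized log2 scale of the fit, the highest level was 1.52 in BIT and 1.43 in WT mice. The fitted change was 0.53 on the log2 scale (SE 0.372, 95% interval -0.31 to 1.38, adjusted p = 0.716, limma-voom) over all mice. It was 0.90 (SE 0.335, unadjusted p = 0.0246, adjusted p = 0.363) without WT replicate 3, and 1.08 (SE 0.31, unadjusted p = 0.00815, adjusted p = 0.208) in replicates 1 and 2 alone, while it was 0.24 (SE 0.387) without WT replicate 2, 0.32 (SE 0.416) without BIT replicate 1, and 0.21 by edgeR's quasi-likelihood test over all mice. Replicate 3 of both genotypes taken alone has 1 library each and gives no test.

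*Cd226* had 9065, 9337 and 7110 counts in WT and 6334, 5026 and 5521 in BIT mice. It was lower in each BIT mouse than in each WT mouse (log2 fold change -0.45, SE 0.108, unadjusted p = 0.00249), although its adjusted p was 0.349 in limma-voom. *Pvr* was at 12.4, 12.5 and 14.7 CPM in WT and 10.0, 8.41 and 11.9 CPM in BIT mice, which did not overlap (log2 fold change -0.37, SE 0.152, unadjusted p = 0.0369, adjusted p = 0.56). *Pvrig*, an inhibitory receptor of the same family, had 11 to 24 counts in WT and 25 to 35 in BIT mice (log2 fold change 1.25, SE 0.415, adjusted p = 0.526). The unadjusted values thus ran lower for Cd96, *Cd226* and *Pvr* and higher for Tigit and *Pvrig*, and none passed the adjusted threshold.

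BTLA and CD160 bind HVEM, the product of *Tnfrsf14*, whose other ligand LIGHT is encoded by *Tnfsf14*. Btla (ENSMUSG00000052013.16, chr16:45044475-45078033, plus strand) had 2488, 2353 and 1763 counts in WT and 1960, 1817 and 1732 in BIT mice, or 47.7, 49.3 and 41.3 CPM against 46.2, 43.5 and 43.2 CPM. The WT values spanned those of the BIT mice. Its log2 fold change of -0.09 (SE 0.0898, 95% interval -0.30 to 0.11, adjusted p = 0.795, limma-voom) was the smallest of the 9, with the narrowest interval, and it ranged from -0.16 without WT replicate 3 to -0.03 without WT replicate 2.

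Cd160 (ENSMUSG00000038304.15, chr3:96706079-96736667, minus strand) had 913, 933 and 721 counts in WT and 652, 637 and 574 in BIT mice. Its levels were 17.5, 19.5 and 16.9 CPM in WT and 15.4, 15.3 and 14.3 CPM in BIT mice. All 3 BIT mice lay below all 3 WT mice, in a two-sided exact permutation test p = 0.1, the smallest that 3 against 3 allow. The log2 fold change was -0.25 (SE 0.102, unadjusted p = 0.0367, adjusted p = 0.56, limma-voom), which is 84.0% of the WT level, and -0.28 (SE 0.114, adjusted p = 0.399) without WT replicate 3. With each mouse left out in turn it stayed between -0.28 and -0.19, and the unadjusted p was below 0.05 in limma-voom only without WT replicate 3, reaching 0.119 without WT replicate 2. Cd160 shares 68 exon bases with *Pdzk1* on the opposite strand. The library kit keeps strand, whereas the strand setting of the counting is not given in the sources used here.

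The partner *Tnfrsf14* had 1015 to 1400 counts in WT and 907 to 1221 in BIT mice (log2 fold change 0.07, SE 0.127, adjusted p = 0.905, limma-voom). *Tnfsf14* was at 6.14 to 7.13 CPM in WT and 9.46 to 9.61 CPM in BIT mice, without overlap (log2 fold change 0.53, SE 0.135, unadjusted p = 0.00372, adjusted p = 0.385).

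PD-1, LAG-3 and TIM-3 are the receptors most often used to describe exhausted cells. Pdcd1 (ENSMUSG00000026285.9, chr1:93966027-93980312, minus strand) had 68, 116 and 141 counts in WT and 63, 65 and 36 in BIT mice. The levels were 1.3, 2.43 and 3.3 CPM in WT and 1.49, 1.56 and 0.899 CPM in BIT mice. WT replicate 1 lay among the BIT mice and the other WT libraries above them. Its log2 fold change was -0.64 (SE 0.384, 95% interval -1.51 to 0.23, adjusted p = 0.681, limma-voom). It was -0.47 (SE 0.401, adjusted p = 0.664) without WT replicate 3 and -0.11 (SE 0.319) in replicates 1 and 2 alone. Without WT replicate 1 it was -0.93 (unadjusted p = 0.0376, adjusted p = 0.662, limma-voom), and without BIT replicate 3 it was -0.28 (unadjusted p = 0.434). DESeq2 gave -0.83 (unadjusted p = 0.0483, adjusted p = 0.611).

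Lag3 (ENSMUSG00000030124.3, chr6:124881320-124888765, minus strand), a relative of CD4 that binds MHC class II, had 113, 148 and 172 counts in WT and 121, 46 and 58 in BIT mice. In CPM these were 2.17, 3.1 and 4.03 against 2.85, 1.1 and 1.45. BIT replicate 1 lay within the WT range and the other 2 BIT mice below it. The log2 fold change of -0.74 was the most negative of the 9 (SE 0.36, 95% interval -1.56 to 0.07, unadjusted p = 0.0697, adjusted p = 0.63, limma-voom). It was -0.63 (SE 0.387) without WT replicate 3, -0.50 (SE 0.4) without BIT replicate 2, and -1.19 (SE 0.322) without BIT replicate 1, the last with an unadjusted p of 0.00534 and an adjusted p of 0.631. Lag3 lies 6.6 kb from *Cd4*, which had 17 to 38 counts in WT and 8 to 28 in BIT mice.

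The ligand genes *H2-Aa* and *H2-Ab1* of MHC class II, which lie beside *Psmb8* on chromosome 17, had lower counts in each BIT mouse. *H2-Aa* was at 15.6 to 29.5 CPM in WT and 10.4 to 14.7 CPM in BIT mice (log2 fold change -0.88, SE 0.255, adjusted p = 0.478, limma-voom), and *H2-Ab1* at 19.2 to 35.1 and 14.6 to 17.6 CPM (-0.73, SE 0.227, adjusted p = 0.508). Both genes are typical of B cells and dendritic cells, whose markers are given below.

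Havcr2 (ENSMUSG00000020399.15, chr11:46345673-46374149, plus strand), which is also found on dendritic cells and macrophages, had 33, 64 and 161 counts in WT and 46, 21 and 49 in BIT mice. WT replicate 3, at 3.77 CPM, was the only library above 1.34 CPM, and the other 5 libraries overlapped between the groups, from 0.503 to 1.34 CPM. The log2 fold change was -0.54 (SE 0.565, 95% interval -1.82 to 0.75, adjusted p = 0.811, limma-voom), and -0.01 (SE 0.435, 95% interval -0.99 to 0.98) without that library, against -1.06 (SE 0.504) without WT replicate 1 and -0.22 (SE 0.614) without BIT replicate 2. The lower mean of the BIT mice therefore rested on WT replicate 3.

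For the PD-1 ligands, *Cd274* had 1267 to 1385 counts in WT and 1063 to 1609 in BIT mice (log2 fold change 0.07, SE 0.144, adjusted p = 0.91, limma-voom). *Pdcd1lg2* had 16 to 27 counts in WT and 27 to 43 in BIT mice (log2 fold change 1.00, SE 0.412, unadjusted p = 0.0385, adjusted p = 0.56).

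Cd244a (ENSMUSG00000004709.15, chr1:171386708-171437315, plus strand), a SLAM family receptor for CD48, was the least abundant member, with 18, 22 and 35 counts in WT and 8, 19 and 18 in BIT mice. Counting error alone is 16.9% to 35.4% of such counts. The log2 fold change was -0.31 (SE 0.431, 95% interval -1.29 to 0.67, adjusted p = 0.862, limma-voom), and it was -0.13 (SE 0.498) without WT replicate 3 and turned to 0.03 without BIT replicate 1. The span of Cd244a takes in the gene *Ly9* on the opposite strand, but 0 bases of their annotated exons overlap. *Cd48* was at 69.4 to 85.0 CPM in WT and 62.0 to 79.3 CPM in BIT mice (log2 fold change -0.22, SE 0.115, adjusted p = 0.64).

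Cd200 (ENSMUSG00000022661.15, chr16:45202470-45229594, minus strand) encodes not a receptor with a signalling tail but a surface ligand for the inhibitory receptor CD200R1. It had 150, 177 and 98 counts in WT and 100, 75 and 83 in BIT mice, or 2.87, 3.71 and 2.3 CPM against 2.36, 1.8 and 2.07 CPM. In CPM, WT replicate 3 lay just under the highest BIT mouse, and WT replicates 1 and 2 above all BIT mice. On the quantile-normalized log2 scale of the fit, the lowest WT level was 0.91 and the BIT levels were 0.90 to 1.41. Cd200 had a log2 fold change of -0.40 (SE 0.301, unadjusted p = 0.214, adjusted p = 0.734, limma-voom), -0.67 (SE 0.248, unadjusted p = 0.024, adjusted p = 0.362) without WT replicate 3 and -0.20 (SE 0.324, unadjusted p = 0.557) without WT replicate 2. The gene of its receptor, *Cd200r1*, had 60, 102 and 82 counts in WT and 30, 36 and 39 in BIT mice (log2 fold change -0.83, SE 0.3, unadjusted p = 0.0223, adjusted p = 0.537).

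To see the balance of a receptor and its partner without the scaling between libraries, 8 ratios were taken within each library. The log2 ratio of Cd96 to *Cd226* was -0.13 ± 0.16 (SD, n = 3) in WT and 0.02 ± 0.0648 in BIT mice (exact permutation p = 0.3), so that the 2 genes were counted at nearly equal numbers in every library. These counts are not corrected for length. Per kilobase of annotated exon the mean level was 69.2 CPM for Cd96 and 31.6 CPM for *Cd226*. The log2 ratio of Tigit to *Cd226* was -7.16, -7.5 and -5.69 in WT and -5.85, -6.0 and -6.17 in BIT mice, a difference of 0.77 in which WT replicate 3 again lay beyond the BIT mice (exact permutation p = 0.4). The difference was 1.32 without WT replicate 3, when the groups no longer overlapped, and 0.42 without WT replicate 2. The ratio of Cd160 to *Tnfrsf14* was the only 1 of the 8 without overlap, at -0.62, -0.12 and -0.64 in WT and -0.79, -0.94 and -0.66 in BIT mice. Its difference of -0.34 had an exact permutation p of 0.1 and an adjusted p of 0.48, its nearest WT and BIT values were -0.64 and -0.66, and without WT replicate 2 it was -0.17. The remaining log2 ratios differed by -0.13 (Btla to *Tnfrsf14*), -0.39 (Cd244a to *Cd48*), 0.50 (Cd200 to *Cd200r1*), -0.80 (Pdcd1 to *Cd28*) and -0.81 (Lag3 to *Cd8a*), with exact permutation p-values between 0.2 and 0.6. Single libraries moved each of these differences. Without WT replicate 3 they were -0.25, 0.02, 0.23, -0.53 and -0.51 in the same order, so that Cd244a to *Cd48* turned, as it did without BIT replicate 1 (0.12), and Btla to *Tnfrsf14* turned to 0.03 without WT replicate 2 and was -0.03 without BIT replicate 2. Cd200 to *Cd200r1* was 0.76 without WT replicate 1 and 0.28 without BIT replicate 1, Pdcd1 to *Cd28* was -0.46 without BIT replicate 3, and Lag3 to *Cd8a* was -0.51 without BIT replicate 2. The reference genes *Cd28* and *Cd8a* had log2 fold changes of -0.03 (SE 0.107) and -0.04 (SE 0.0726).

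**Figure D3:**
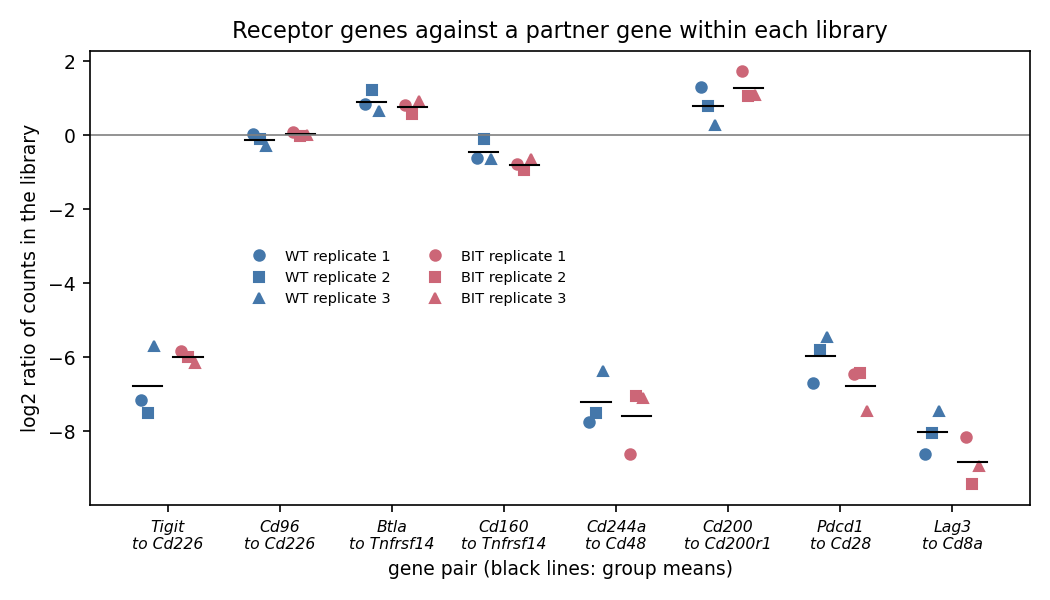
Log2 ratio of the counts of a receptor gene to those of a partner gene in the same library for 8 pairs, with 1 point per mouse (blue, WT; red, BIT) and black lines at the group means. The ratio of Cd96 to Cd226 lies between -0.30 and 0.09 in all libraries, and the ratio of Cd160 to Tnfrsf14 is the only one in which no BIT point reaches a WT point.

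The other genes of these pathways were taken from 6 lists, and counted at an unadjusted p below 0.05 in limma-voom, as 4.31% (lower) and 4.25% (higher) of all genes were. Of 17 ligands and counter-receptors 13 were tested, and 4 were lower and 2 higher, with 0 at an adjusted p below 0.05 and a median log2 fold change of -0.20. Of 15 signalling partners, such as phosphatases and adaptors, 1 was lower (*Sh2d1a*, the adaptor SAP, log2 fold change -0.25) and 1 higher (*Inpp5d*, the phosphatase SHIP-1, 0.25), while *Rasa1*, a regulator of Ras, had an unadjusted p of 0.0941 and a log2 fold change of -0.16. Their median was 0.05, with 0 at an adjusted p below 0.05.

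Among 15 other inhibitory receptors 1 was lower and 3 were higher, with 0 at an adjusted p below 0.05 and a median log2 fold change of -0.03. *Ctla4*, which competes with CD28 for its ligands, had 115, 129 and 170 counts in WT and 42, 23 and 49 in BIT mice (log2 fold change -1.57, SE 0.304, unadjusted p = 0.000645, adjusted p = 0.229, limma-voom). This was a greater difference than that of any of the 9 receptors. *Cd5*, a damper of antigen receptor signals, was at 156 to 173 CPM in WT and 208 to 224 CPM in BIT mice (log2 fold change 0.33, SE 0.0789, adjusted p = 0.349). Of 14 costimulatory receptors 3 were lower and 0 higher, namely *Cd226*, *Slamf1* (log2 fold change -0.48, adjusted p = 0.531) and *Slamf6* (-0.58, adjusted p = 0.531), with a median of -0.10.

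Of 16 transcription factors of activation and exhaustion, 2 were lower and 2 higher, with 0 at an adjusted p below 0.05 and a median log2 fold change of -0.11. *Eomes* was at 76.3 to 95.8 CPM in WT and 128 to 157 CPM in BIT mice (log2 fold change 0.69, SE 0.114, adjusted p = 0.112, limma-voom). *Tbx21*, which encodes T-bet, had a log2 fold change of 0.75 (SE 0.275, adjusted p = 0.538) and *Irf4* of -0.53 (SE 0.166, adjusted p = 0.508). *Tox*, the factor most tied to exhaustion, had a log2 fold change of -0.12 (unadjusted p = 0.288). In the list of 10 memory-phenotype genes, 0 were lower and 7 higher at an unadjusted p below 0.05, with a median of 0.43. There *Il2rb*, the β chain of the receptors for IL-2 and IL-15, rose in BIT mice, at 215 to 257 CPM in WT and 415 to 446 CPM in BIT libraries (log2 fold change 0.77, SE 0.0893, adjusted p = 0.025), the only gene of the 6 lists past the adjusted threshold. With each mouse left out its log2 fold change was 0.70 to 0.84, and its adjusted p passed the threshold in 1 of the 6 fits (0.0141 without WT replicate 3) and rose to 0.244 at most without BIT replicate 2. *Eomes* and *Tbx21* stand in both of these lists.

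Levels of other cell types were read from marker lists, since several of the receptors are also expressed outside CD8+ T cells. Summed CD8 T cell markers were at 3590 to 4200 CPM in WT and 3690 to 4320 CPM in BIT mice. Summed CD4 T cell markers did not overlap, at 26.6 to 29.5 CPM in WT and 14.7 to 16.9 CPM in BIT mice. Most of that sum was *Izumo1r*, which fell in BIT mice, with 1031 to 1144 counts in WT and 420 to 574 in BIT libraries (log2 fold change -0.96, SE 0.122, adjusted p = 0.0399, limma-voom). Its adjusted p also passed only without WT replicate 3 (0.0349) among the 6 fits that leave out a mouse, and was 0.277 at most, without BIT replicate 2. Of the 5 CD4 T cell markers, 3 were lower and 2 higher by fit. On the quantile-normalized log2 scale of the fit, *Izumo1r* was the only 1 whose groups did not overlap. *Foxp3* had 30 to 64 counts in WT and 18 to 27 in BIT mice (log2 fold change -0.62, SE 0.45). The *Foxp3* groups overlapped on the scale of the fit but not in TMM CPM, at 0.703 to 1.23 in WT and 0.449 to 0.647 in BIT mice. The log2 fold change was -0.46 (SE 0.556) for *Cd4*, 0.22 (SE 0.27) for *Zbtb7b* and 0.00 (SE 0.482) for *Cd40lg*. *Ctla4*, Tigit, Lag3 and Pdcd1 are also expressed by regulatory or antigen-experienced CD4+ T cells, and the part of CD4+ T cells in their levels was not tested.

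Summed myeloid and dendritic cell markers were at 16.6, 26.0 and 42.5 CPM in WT and 18.8, 13.3 and 20.3 CPM in BIT mice, with 8 of the 9 tested markers lower in BIT mice by fit and 0 at an unadjusted p below 0.05. The highest sum was that of WT replicate 3, where *Itgax* had 822 counts beside 129 to 270 in the other 5 libraries, while *Csf1r*, with 171, 281 and 207 counts in WT, was not raised in it. In the same library 5 of the 9 receptors, Pdcd1, Lag3, Tigit, Havcr2 and Cd244a, had their highest level in TMM CPM, whereas Btla had its lowest. Some genes of memory and effector T cells also had their highest level there, and others did not. *Gzmk* had 490 counts in WT replicate 3 and 45 to 149 in the other 5 libraries, *Klrg1* 336 and 17 to 55, *Gzmb* 1386 and 106 to 547, and *Ccl5* was at 193 CPM beside 58.7 to 122. The highest level of *Eomes*, *Il2rb* and *Tbx21* was in a BIT mouse. Among the WT mice, *Eomes* and *Tbx21* were nonetheless highest in replicate 3. *Eomes* was at 82.7, 76.3 and 95.8 CPM in WT replicates 1, 2 and 3 and at 128 to 157 CPM in BIT mice. *Tbx21* was at 15.8, 16.7 and 34.0 CPM in WT and 29.3 to 43.4 CPM in BIT mice. *Il2rb* was at 257, 215 and 255 CPM in WT and 415 to 446 CPM in BIT mice. Whether myeloid cells or more antigen-experienced T cells had a part in the receptor levels of WT replicate 3 was not tested.

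Summed B cell markers were at 316 to 383 CPM in WT and 331 to 352 CPM in BIT mice, mostly from *Ighm*, with all 8 lower by fit, 0 at an unadjusted p below 0.05 and a median log2 fold change of -0.39. That median was -0.45 for the myeloid and dendritic cell markers, -0.46 for the CD4 T cell markers and -0.31 for the receptors. NK cell markers were at 3.2 to 5.9 CPM in WT and 4.74 to 7.3 CPM in BIT mice. By fit 4 of these 5 markers were higher and 1 lower in BIT mice, with a median log2 fold change of 0.63. Only *Klre1* had an unadjusted p below 0.05 (log2 fold change 1.03, SE 0.324, unadjusted p = 0.0112, adjusted p = 0.508, limma-voom), and its groups did not overlap. γδ T cell markers, of which 3 of 5 were found by symbol in the table, were at 7.48 to 7.78 and 9.25 to 10.8 CPM. That rise came from *Scart1*, at 2.28 to 3.73 CPM in WT and 4.41 to 7.18 CPM in BIT mice. *Trdc* did not rise, at 4.05 to 5.17 CPM in WT and 3.59 to 4.84 CPM in BIT mice (log2 fold change -0.10, SE 0.215). Among the defining markers *Sox13* was at or under 3 counts in every library, and no marker found was at 0 in all of them. Their part in the receptor levels was not tested.

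**Figure D4:**
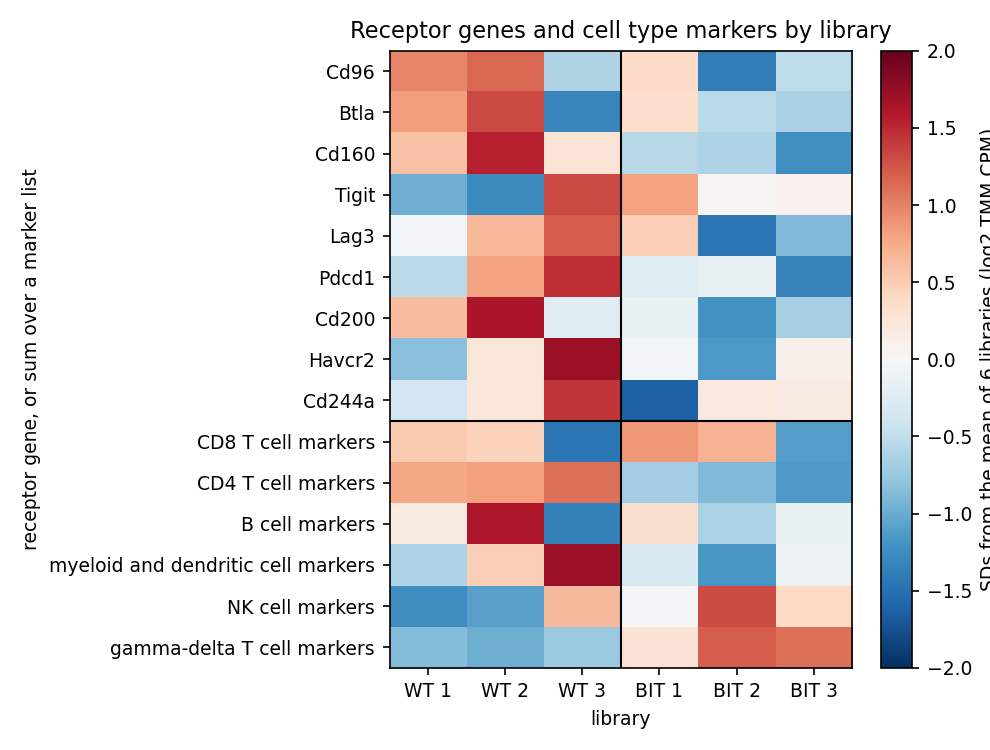
Each row is a receptor gene (upper block) or the summed level of a marker list (lower block), each column a library, and the colour the number of SDs from the mean of the 6 libraries on the log2 TMM CPM scale (red, higher; blue, lower). WT replicate 3 is the highest column for Pdcd1, Lag3, Tigit, Havcr2 and Cd244a and for the myeloid and dendritic cell markers. The sum of the CD4 T cell markers, most of it Izumo1r, separates the genotypes.

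Across the 6 libraries the receptors did not vary as 1 group. Btla, Cd200 and Cd96 varied together, with Pearson r of 0.94 for Btla and Cd200, 0.93 for Btla and Cd96 and 0.88 for Cd200 and Cd96, and of 0.92, 0.91 and 0.86 after the group means were taken out. These 3 genes lie near each other on chromosome 16, where 124.4 kb with 0 protein-coding genes part Btla from Cd200 and 626.4 kb with 10 such genes part Cd200 from Cd96. Tigit, 1560 kb from Btla on the same chromosome, varied against them, with r of -0.81 to Btla, -0.67 to Cd200 and -0.65 to Cd96. After the group means were taken out these were -0.76, -0.57 and -0.52. Cd160, which lies on chromosome 3, also varied with Btla, Cd200 and Cd96, with r of 0.76, 0.73 and 0.78. These were 0.79, 0.76 and 0.56 after the group means were taken out. Whether position has a part in this was not tested. Pdcd1 and Lag3 had an r of 0.73, and Lag3 and Havcr2 of 0.67, which were 0.57 and 0.59 after the group means were taken out. Tigit had an r of 0.38 to Havcr2, 0.11 to Lag3 and 0.11 to Pdcd1. With the group means taken out, these 3 values were 0.68, 0.58 and 0.52. These values describe 6 libraries that share depth and composition, replicate 3 included, and carry no test.

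The mean of the standardized levels of the 9 receptors was 0.06, 0.71 and 0.48 SD in the WT libraries and 0.00, -0.55 and -0.70 SD in the BIT libraries. Among 7807 genes with a mean of at least 10 CPM, those whose level followed this mean most closely over the 6 libraries were *Hmgn2* (r = 0.992), *Srgn* (r = 0.988) and *Lin9* (r = 0.987), and 88 genes had an r above 0.9.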

How the data were processed

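Per the labels and the study's methods, RNA was depleted of ribosomal RNA, and the authors deposited estimated counts per gene, made with Cutadapt 1.18 (trimming), STAR 2.7.0f (alignment, GRCm39) and RSEM 1.3.1 (counting, Gencode M38), with versions from the submitters' processing notes. Reads that match several genes are split between them by RSEM. Of the deposited values above 0, 84.8% were whole, as were all counts of the 9 receptors.

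Counts were rounded, filtered with filterByExpr (edgeR 4.0.16), quantile-normalized and compared with limma-voom (limma 3.58.1, R 4.3.3) with Benjamini-Hochberg adjustment over 16105 genes, after the study's methods. Quantile normalization would hide a shift of most genes in 1 direction. CPM were scaled with TMM factors. Ratios had 0.5 added to each count. Alternatives were DESeq2 1.42.0, edgeR's quasi-likelihood test, TMM in place of quantile normalization, other filters, sample weights, a replicate block, a batch term for replicate 3, replicates 1 and 2 alone, and each mouse left out.

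A planned sign-flip test of the level order is not reported, since the same values set the order. Membrane-spanning stretches were 19 residues with a mean Kyte-Doolittle value of at least 1.6. Positions are from Gencode M39. The receptors, the lists and the alternatives were chosen with earlier results of these data known. Named were all 9 receptors, the partners in the ratios, the genes of each list at an adjusted p below 0.05 or otherwise the 3 with the smallest p, the defining markers, and the 3 genes most like the receptors' mean. *Cd274*, *Pdcd1lg2*, *Pvr*, *Tox*, *Gzmk*, *Klrg1*, *Gzmb* and *Ccl5* were named after their values were seen.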

Additional observations from a re-analysis of the deposited data

How the results depend on the processing

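No receptor reached an adjusted p below 0.05 in any of the 15 alternatives, and 8 of the 9 kept the direction of their fold change in each alternative that could be fitted. The exception was Cd244a, whose log2 fold change was -0.306 and ranged from -0.572 to 0.025 with each mouse left out, turning without BIT replicate 1; it did not pass a mean of at least 1 CPM. The number of receptors at an unadjusted p below 0.05 was 2, was 1 with TMM normalization, edgeR, DESeq2, no filter on low counts or a mean of at least 1 CPM, and was 0 to 4 with each mouse left out (0 without WT replicate 2, BIT replicate 2 or BIT replicate 3, and 4 without WT replicate 3). The 22 genes at an adjusted p below 0.05 became 14 with edgeR, 125 with DESeq2, 42 with a batch term for replicate 3, 71 in replicates 1 and 2 alone, and 1 (without WT replicate 1) to 37 (without WT replicate 3) with each mouse left out. Of the pathway lists, 24 genes were at an unadjusted p below 0.05, and 13 (without BIT replicate 2) to 25 with each mouse left out. The number of the 8 ratios without overlap was 1, and 1 to 5 with each mouse left out (5 without WT replicate 1, with fewer libraries to keep apart). The causes were not tested.

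The replicate numbers were not shown to pair the mice. The deviations of same-numbered libraries correlated at 0.139, 0.0255 and 0.332, the last, of replicate 3, being the highest of any WT and BIT pair. Those of unlike-numbered libraries correlated at -0.30 to 0.24. With the replicate block 21 genes were called, and 2 receptors, Cd160 and Cd96, had an unadjusted p below 0.05, while the adjusted p of *Izumo1r* was 0.0551 (0.0602 with no filter on low counts) and that of *Il2rb* 0.0311. Nothing in the labels says what a shared number marks. P-values measure the spread between 3 mice per group. At its lowest count, the counting error of a library was 1.42% to 4.17% for Cd96, Btla and Cd160 and 11.5% to 35.4% for the other 6 receptors.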
